A study of Mus musculus with 6 samples.

Results

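The pyruvate dehydrogenase complex decides how much pyruvate enters the citric acid cycle, and its kinases set how much of the complex is active. Transcript signals of both were compared between hearts of Akt2 knockout and wild type mice. The members are 9 genes, 4 kinases (Pdk1, Pdk2, Pdk3 and Pdk4) and 5 subunits of the complex (Pdha1, Pdhb, Dlat, Dld and Pdhx). All probe sets whose platform annotation names exactly 1 of these genes were taken, which gave 17 of the 45037 probe sets that are not controls, 7 of them for kinases and 10 for subunits. That rule uses the annotation alone, but the genes were chosen with earlier results of these data known. No member passed the test of the genotype difference, and in each of the 17 probe sets the knockout and wild type signals overlapped.

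The samples were left ventricles of male C57BL/6 mice aged 12 to 16 weeks. The knockout group, akt2-/-, carried a targeted disruption of Akt2 on both alleles and had been backcrossed more than 7 times to C57BL/6. The wild type group was age-matched. Each group had 3 samples, each on its own Affymetrix array. The labels name no treatment and do not say which part of the gene was disrupted or whether the mice were littermates. Nor do they tie each sample to an animal of its own, and a p-value here covers the spread among the 6 samples, which may be technical.

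The complex works in 3 steps. Its E1 part, made of alpha and beta subunits, removes carbon dioxide from pyruvate with the help of thiamine; its E2 core hands the acetyl group to coenzyme A through a lipoyl arm; and E3 reoxidises that arm. The kinases add phosphate to the E1 alpha subunit and switch the complex off, and phosphatases reverse this. In the heart, Pdk4 transcripts are known to rise in fasting and diabetes, when fatty acids replace glucose as fuel. Pdk4 is a known target of the PPAR receptors and of FoxO transcription factors, which Akt kinases hold inactive after insulin.

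The targeted gene was low in every knockout array. The brightest Akt2 probe set had signals of 477.8, 394.5 and 255.4 in knockouts 1, 2 and 3, against 2362.6, 2561.3 and 2505.4 in the wild type. This probe set differed by -2.69 on the log2 scale. Its limma adjusted p was 0.18 over probe sets and 0.0638 over genes, so in this design the targeted gene did not pass either. Median signals were between 88.4 and 91.2 in 4 arrays but reached 167.2 in wild type 1 and 134.3 in knockout 1. Controls for 18S ribosomal RNA read 82330 and 57275 there (medians), and only 152.7 to 446.7 elsewhere. The 8 cardiomyocyte markers examined (Myh6, Tnnt2 and others) were all bright, and their signals summed to 1168900 in wild type 1, 716010 in knockout 1 and 374200 to 500440 elsewhere. The replicate 1 arrays therefore stood apart from the rest in both genotypes. They were also unlike each other. Over the tested probe sets their log2 values correlated at 0.94, against 0.982 to 0.986 among the other 4 arrays. Between the replicate 1 arrays and those 4, correlations were 0.895 to 0.944. Beside pooled values, the main differences are also given within the replicate 1 pair (1 array a genotype) and within the other 4 arrays (2 a genotype).

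Pdk4, the kinase most responsive to fasting, was read by 1 probe set, 1417273_at. Its signal was 7693.5, 9185 and 8970.6 in wild type 1, 2 and 3, and 4412.3, 8410.3 and 7146.8 in knockouts 1, 2 and 3. Knockouts 1 and 3 lay below all wild type arrays, while knockout 2 lay among them, so the groups overlapped. Each knockout array was below the wild type array of its own number. The means were 6656 ± 2040 (SD, n = 3) in the knockout and 8616 ± 806 (SD, n = 3) in the wild type. The log2 difference, knockout minus wild type, was -0.42 (SE 0.272), with a 95% interval from -1.06 to 0.23. It did not pass (limma adjusted p = 1 over 22519 probe sets).

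The size of the Pdk4 difference rested largely on 1 array. Within the replicate 1 pair the log2 difference was -0.80, and within replicates 2 and 3 it was -0.23. Without knockout 1 it was -0.15, and without knockout 2 it was -0.61. Knockout 1 also had the lowest summed signal of the 7 macrophage markers measured, 13653, against 21244 and 26624 in the other knockouts. Wild type 1 was likewise the lowest wild type array, with 18453 against 27085 and 27538, so both replicate 1 arrays were low. All 7 macrophage markers (among them Csf1r and Lyz2) had a lower mean log2 value in the knockout. Of the adipocyte markers, 5 were on the array and none was bright enough to be tested. Their summed signal was 158.4 to 190.7 in the knockout and 181.3 to 287.6 in the wild type, and Adipoq stayed between 39 and 93.4. The atrial myocyte markers had a higher mean log2 value in the knockout in 5 of 5, among them Myl7 (1.10) and Sln (0.67). Myl7 had 1101.2, 96.5 and 1246.3 in the wild type against 1861.2, 1320.5 and 635.2 in the knockout. Sln had 205.2, 56.6 and 583.9 against 613.6, 405.7 and 138.1. In both, wild type 2 was the lowest array and knockout 3 lay below wild types 1 and 3. The summed atrial signals were 16365 to 19965 in the knockout and 15078 to 16704 in the wild type. Endothelial markers were lower in 6 of 7 (54037 to 58394 against 56366 to 59887) and cardiomyocyte markers in 7 of 8. The high wild type 1 array entered the cardiomyocyte means. In replicates 2 and 3 the cardiomyocyte sums were 453550 and 500440 in the knockout against 374200 and 479690 in the wild type. Fibroblast markers were higher in 5 of 7 (35701 to 67009 against 37762 to 59392), smooth muscle and pericyte markers in 5 of 7 (33244 to 36468 against 30618 to 38600), and skeletal muscle markers were lower in 6 of 8 (56744 to 75944 against 56718 to 77570). The fibroblast sums were also lowest in the replicate 1 arrays, 37762 in wild type 1 and 35701 in knockout 1. The summed signals of the genotypes overlapped in every marker list, but single markers did not always. Of the endothelial markers, Aqp1 (9526.5 to 10847.6 against 11464.6 to 14195.9), Pecam1, Tek and Vwf had all knockout arrays below all wild type arrays. Kdr, Cdh5 and Fabp4 overlapped, and Fabp4, the brightest, made up most of the endothelial sum. The fibroblast marker Col3a1 and the dim skeletal muscle marker Actn3 had all knockout arrays above all wild type arrays. Over all tested genes, 7.46% were fully apart. The part of other cell types in the Pdk4 values was not tested, and in bulk tissue fewer cells of a type and less RNA per cell cannot be told apart.

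When the replicate 1 arrays were given a term of their own in the fit, the Pdk4 log2 difference stayed at -0.42 and its 95% interval narrowed to -0.82 to -0.01. The unadjusted limma p was then 0.0448 and the adjusted p 0.629. Such a term takes the replicate 1 arrays to be shifted alike in both genotypes. For Pdk4, replicate 1 minus the mean of replicates 2 and 3 was -0.24 in the wild type and -0.81 in the knockout (log2). Pdk4 was the only one of 15 tested member probe sets with an unadjusted p under 0.05 in that fit, or 6.67%, while 7.77% of all tested probe sets were under it. The members' share in that fit was thus near the background, but it rested on 1 probe set. With a trended robust variance added, 2 of 15 member probe sets and 1871 of all 22519 had an unadjusted limma p under 0.05. Over genes, Pdk4 then had an unadjusted limma p of 0.00766 and an adjusted p of 0.418. Over all alternatives, run at the level of genes, the adjusted p of Pdk4 lay between 0.418 and 1.

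**Figure D1:**
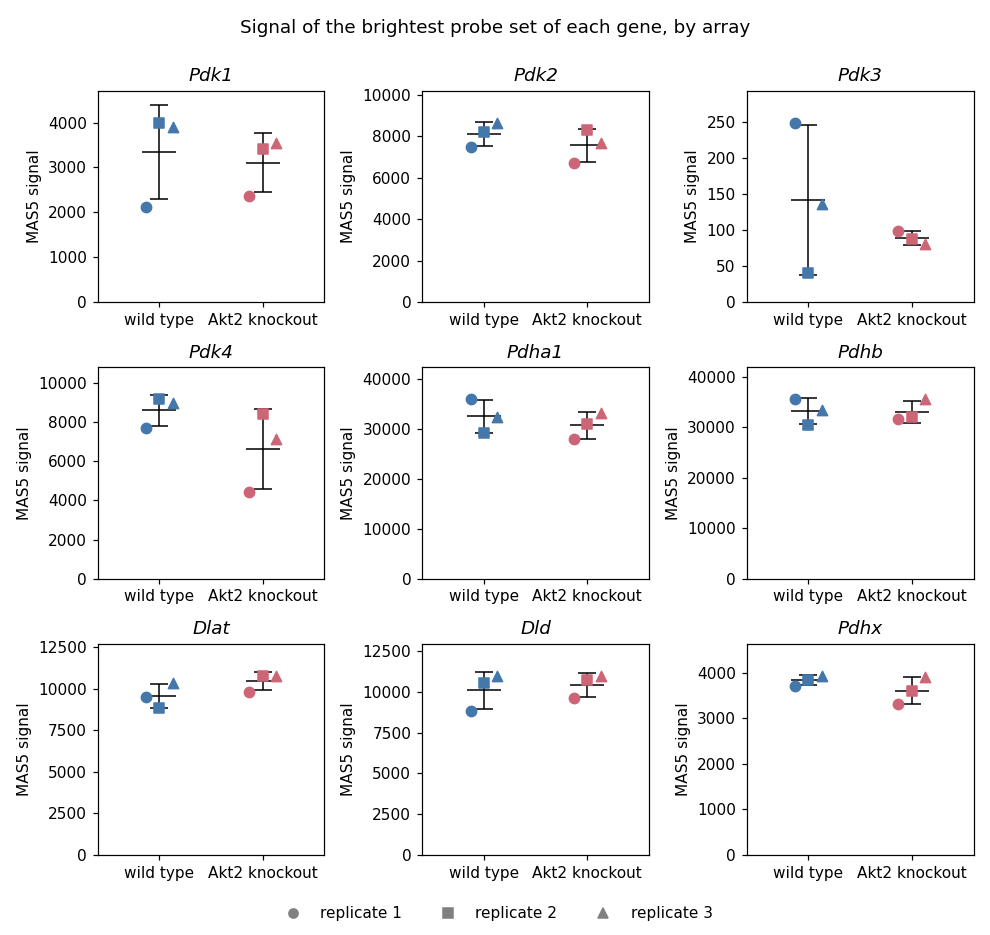
MAS5 signal (linear axis from 0) of the brightest probe set of each of the 9 genes, for 3 wild type and 3 Akt2 knockout arrays. Marker shape gives the replicate number, long bars the mean and error bars the SD. The groups overlap in every panel, and the lowest Pdk4 value is that of knockout 1, 4412.3.

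Pdk1, a kinase also known as a target of the hypoxia factor HIF, was read by 4 probe sets. In the brightest, 1435836_at, wild type signals were 2124.1, 3992.8 and 3902.5 and knockout signals 2361.8, 3417.3 and 3547.7. The replicate 1 arrays of both genotypes were the low ones, and the knockout lay above the wild type in that pair and below it in the other pairs. The pooled log2 difference was -0.07 (SE 0.31, 95% interval -0.81 to 0.67). Probe set 1423747_a_at had 1504.4, 2660.2 and 2621.1 in the wild type against 1496.1, 2318.2 and 1864.3 in the knockout, again with both replicate 1 arrays lowest (log2 -0.23, SE 0.293). Probe set 1423748_at had 1418.9, 1447 and 1219.7 against 1185.4, 1352 and 1128.8 (log2 -0.15, SE 0.177).

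The Pdk1 probe sets thus disagreed on the replicate 1 arrays. On the log2 scale, wild type 1 minus the mean of wild types 2 and 3 was -0.89 in the first and -0.80 in the second, but 0.09 in the third. In the third the knockout was lower in each replicate number, by -0.26, -0.10 and -0.11. The remaining probe set, 1434974_at, had signals of 12.9 to 96.9 in the wild type and 22.2 to 91.2 in the knockout. It was too dim for the test, which took probe sets with a mean log2 value of at least 6.868.

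Pdk2, the kinase found most widely across tissues, had 7487.5, 8173 and 8637.1 in the wild type and 6696.7, 8282.2 and 7670.7 in the knockout. Knockout 1 was the lowest array and knockout 2 lay among the wild type. The log2 difference was -0.10 (SE 0.176, 95% interval -0.52 to 0.32), with -0.16 within the replicate 1 pair and -0.08 within the other 4 arrays. Pdk3 was close to the lower limit of the test, with 249.2, 41 and 136.4 in the wild type against 98.8, 88.2 and 80.1 in the knockout. Its 3 wild type arrays spanned the knockout arrays on both sides, and its log2 difference of -0.33 (SE 0.501) had the widest interval of all tested members, -1.52 to 0.86. That difference was -1.17 within the replicate 1 pair and 0.09 within the other 4 arrays.

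By the brightest probe set, all 4 kinases had a negative log2 difference, with a median of -0.22. With each array scaled to its median signal, Pdk1 and Pdk2 turned to 0.03 and 0.0015. That scaling moved the median of all tested genes from 0.01 (11075 genes) to 0.12 (11078 genes). Relative to the median of all genes, all 4 kinases were below it under the deposited scaling, under median scaling and under quantile normalization. None passed in limma, and the kinases had medians of -0.48 within the replicate 1 pair and -0.13 within the other 4 arrays.

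The E1 subunits carry out the first step of the complex, and the alpha subunit carries its phosphorylation sites. Pdha1, the alpha subunit that the kinases act on, had 35903.9, 29202.5 and 32405.4 in the wild type and 27851.6, 30956.8 and 33198.3 in the knockout in probe set 1418560_at. The highest wild type array and the lowest knockout array were both replicate 1, and in the other pairs the knockout was slightly above. The log2 difference was -0.08 (SE 0.179, 95% interval -0.51 to 0.34), made up of -0.37 within the replicate 1 pair and 0.06 within the other 4 arrays. Its other probe set, 1449137_at, had 25060.7, 15765.1 and 17273.1 against 20777.7, 16331.5 and 16348.7 (log2 -0.10, SE 0.238).

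Pdhb, the beta subunit, had the smallest difference of the members. Its signals in 1416090_at were 35520.4, 30409.9 and 33417 in the wild type and 31599.6, 32038.6 and 35481 in the knockout. The means were 33120 ± 2570 (SD, n = 3) and 33040 ± 2130 (SD, n = 3), a log2 difference of -0.0023 (SE 0.169, 95% interval -0.40 to 0.40). The second Pdhb probe set, 1448214_at, had 1550.8, 935.2 and 1083.5 against 1187.2, 1076.8 and 1066.2 (log2 -0.07, SE 0.229), with wild type 1 as the high array. By the brightest probe set of both E1 genes, the knockout was lower in the replicate 1 pair and higher in the other pairs.

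Dlat, the E2 acetyltransferase core, was higher in the knockout by all 3 of its probe sets, which read the same transcript and are no independent evidence. In 1426265_x_at, a type of probe set that may also bind other sequences, signals were 9518.1, 8846.7 and 10333.5 in the wild type and 9818.6, 10782 and 10744.1 in the knockout. Knockouts 2 and 3 lay above all wild type arrays and knockout 1 among them. The log2 difference was 0.13 (SE 0.167, 95% interval -0.27 to 0.53), with 0.04 within the replicate 1 pair and 0.17 within the other 4 arrays. In 1452005_at, signals were 5560.2, 4307.6 and 4394.3 against 6329.3, 4996.1 and 5265.7, and the knockout was higher in each replicate number by a similar amount, 0.19, 0.21 and 0.26 on the log2 scale. That probe set had a pooled log2 difference of 0.22 (SE 0.197, adjusted p = 1) and, with the term for the replicate 1 arrays, a 95% interval from -0.05 to 0.49 (limma adjusted p = 0.658). The third, 1426264_at, had a log2 difference of 0.10 (SE 0.175).

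Dld, the E3 enzyme that also serves the sister complexes for 2-oxoglutarate and branched-chain keto acids, had 8822.7, 10532.4 and 10978 in the wild type against 9610.2, 10721.6 and 10992.3 in the knockout. The same-numbered arrays were nearly equal in replicates 2 and 3, and the pooled log2 difference was 0.05 (SE 0.179, 95% interval -0.37 to 0.48), made up of 0.12 within the replicate 1 pair and 0.01 within the other 4 arrays. Its other probe set, 1433263_at, was too dim for the test, at 18.1 to 150.7 in the wild type and 36.7 to 79.5 in the knockout. Pdhx, the protein that holds E3 to the E2 core, had 3713.1, 3843.3 and 3930 against 3315.1, 3586.8 and 3906.9. Knockouts 1 and 2 were below all wild type arrays and knockout 3 was among them, with a log2 difference of -0.09 (SE 0.165, 95% interval -0.48 to 0.30). Pdhx differed by -0.16 within the replicate 1 pair and by -0.05 within the other 4 arrays.

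**Figure D2:**
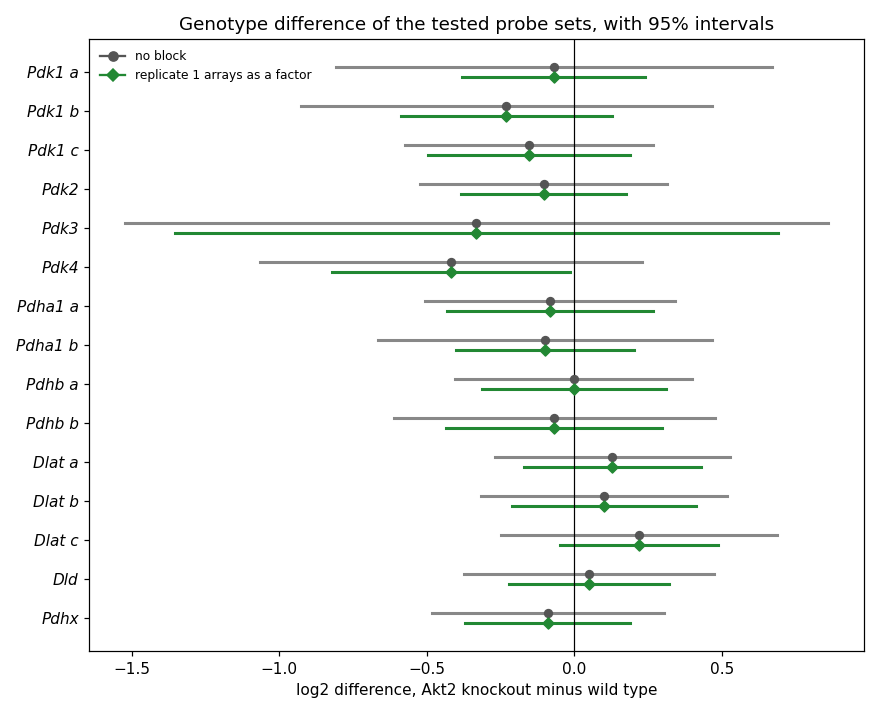
Log2 difference, Akt2 knockout minus wild type, of the 15 tested member probe sets, with 95% intervals from limma without a block (grey) and with a term for the replicate 1 arrays (green); letters order the probe sets of a gene from brightest to dimmest. Every grey interval crosses 0, and Pdk4 in the fit with the term is the only green one that does not (-0.82 to -0.01).

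Over the members together, 0 of 15 tested probe sets had a limma adjusted p under 0.05, as did 0% of all 22519 tested probe sets, and 0 of 9 genes, as did 0% of all 11075 tested genes. At an unadjusted p under 0.05 the counts were 0 of 15 probe sets, against 2.01% of all, and 0 of 9 genes, against 2.17% of all. The knockout and wild type arrays were fully apart in 0 of 17 member probe sets, against 7.59% of all probe sets. With the term for the replicate 1 arrays, 0 member probe sets had an adjusted p under 0.05, against 0.00444% of all. In the same fit over genes, 0 of 9 had an adjusted p under 0.05, against 0.00903% of all, and 1 of 9 (Pdk4) an unadjusted p under 0.05, against 8.32% of all.

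The intervals show what size of difference a fit could have missed in the probe set used, given the spread among these 6 samples. Of the 9 genes, tested by their brightest probe set, 7 had a 95% interval lying wholly within a 2-fold change either way, and 6 within a 1.5-fold change. Other tested probe sets of Pdha1, Pdhb and Dlat reached beyond 1.5-fold in the fit over probe sets. Their log2 intervals were -0.67 to 0.47 (1449137_at), -0.61 to 0.48 (1448214_at) and -0.25 to 0.69 (1452005_at). Pdk3 and Pdk4 were the genes outside the 2-fold bound, and with the term for the replicate 1 arrays only Pdk3 was. By mean log2 value, 7 of the 9 genes were lower in the knockout, against 46.7% of all tested genes. The count depended on the arrays and the scaling: 6 of 9 were lower within the replicate 1 pair and 4 of 9 within the other 4 arrays. With each array scaled to its median, 2 of 9 (Pdk3 and Pdk4) were lower. That scaling also raised the median of all tested genes to 0.12. Set against the median of all tested genes, 7 of 9 were below it under the deposited scaling and under median scaling. With quantile normalization 6 of 9 were below it. In 7 of the 9 genes the size of the log2 difference was below 0.13, the median size over all tested genes.

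The same-numbered arrays were also set against each other. In 7 of the 15 tested probe sets, or 46.7%, the knockout was on the same side in all 3 replicate numbers, against 29.2% of all tested probe sets. The knockout was lower in 4 of these (Pdk4, Pdhx and a pair of Pdk1 probe sets), as in 14.6% of all, and higher in 3 (a pair of Dlat probe sets and Dld), as in 14.5% of all. No test was made of these counts, and probe sets of 1 gene are not independent. The subunits of the complex had a median log2 difference of -0.16 within the replicate 1 pair and 0.06 within the other 4 arrays, and 4 of the 9 member genes differed in direction between these sets of arrays, against 49.9% of all tested genes. Whether the genotype difference itself varied between these sets of arrays was not tested.

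**Figure D3:**
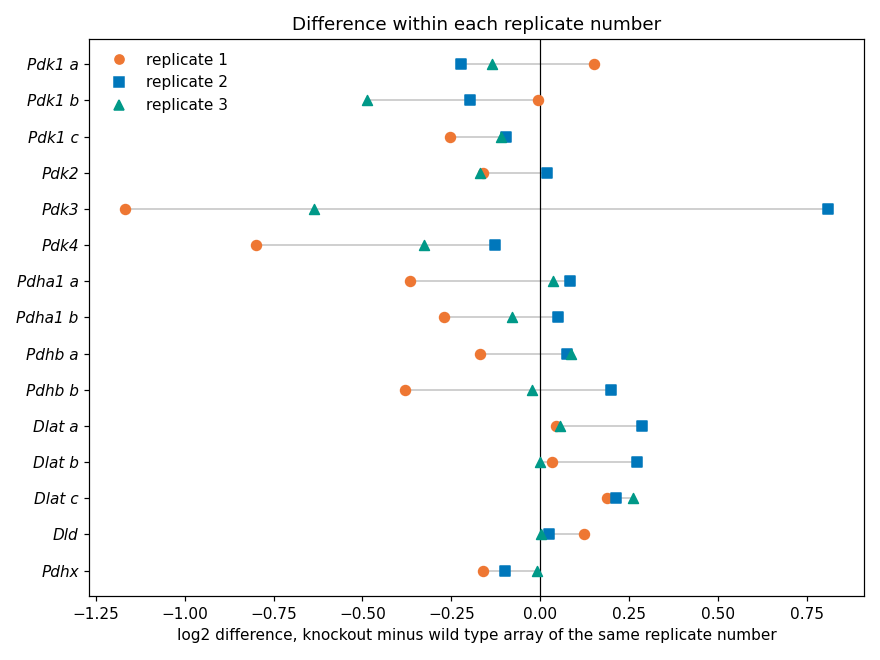
Log2 difference between the knockout and the wild type array of the same replicate number, for the 15 tested member probe sets. Pdk4 lies left of 0 in all 3 numbers (-0.80, -0.13 and -0.33), Dlat c lies right of 0 in all 3 (0.19, 0.21 and 0.26), and Pdk3 ranges from -1.17 to 0.81.

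The genes around the complex were described from lists of 88 gene symbols besides the members, of which 72 were tested. None had a limma adjusted p under 0.05, and 0 had an unadjusted p under 0.05, against 2.17% of all genes. With the term for the replicate 1 arrays, 5 had an unadjusted p under 0.05 (Lipt2, Bckdha, Ppm1k, Ppara and Egln3), or 6.94%, against 8.32% of all genes, and 0 had an adjusted p under 0.05, against 0.00903% of all. No list test was made, and each list is described by its counts beside the median of all tested genes, 0.01. A list takes the brightest probe set of each gene. Under median scaling the medians of the Pdk4 regulators and the HIF targets turned to 0.05 and 0.07, and under quantile normalization that of the HIF targets turned to 0.0049. No other median of these lists changed sign under either scaling.

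The phosphatases that reactivate the complex and the carriers of pyruvate had 4 of 5 tested genes higher in the knockout, with a median log2 difference of 0.15, or 0.03 within the replicate 1 pair and 0.15 within the other 4 arrays. Pdp1, the catalytic subunit of the main phosphatase in muscle, had 1436.2, 1268.3 and 1187.7 in the wild type against 1367.5, 1415.7 and 1529.7 in the knockout (log2 0.15, SE 0.159). Within the replicate 1 pair Pdp1 differed by -0.07, within the other 4 arrays by 0.26. Pdpr, the phosphatase regulatory subunit, had a log2 difference of 0.18 (SE 0.217). Pdp2, the other phosphatase, had -0.03 (SE 0.288), and Slc16a1, the monocarboxylate transporter MCT1, had 0.24 (SE 0.173). Slc16a1 was higher in the knockout within each replicate number, but the groups overlapped. The other tested probe sets of Pdpr gave 0.48 (SE 0.171), with all knockout arrays above all wild type arrays, -0.14 (SE 0.336) and 0.04 (SE 0.381), so the Pdpr probe sets disagreed.

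Genes that supply the cofactors thiamine and lipoate had 4 of 7 tested members higher and a median of 0.02 (0.02 within the replicate 1 pair, 0.06 within the other 4 arrays). In 2 of them the groups did not overlap, where 7.46% of all tested genes showed this. Slc19a2, a thiamine transporter, had 564.2, 572.2 and 569.5 in the wild type against 429.5, 495.1 and 505 in the knockout, a log2 difference of -0.25 (SE 0.152, limma adjusted p = 1). By its remaining tested probe sets Slc19a2 had 0.13 (SE 0.219) and 0.16 (SE 0.235), so the direction was not shared. Lipt2, which starts lipoate attachment, had 440.5, 624 and 617.9 against 635.6, 680.8 and 812.9, a log2 difference of 0.34 (SE 0.203, adjusted p = 1). Mecr and Lias, both of lipoate synthesis, had log2 differences of -0.10 (SE 0.165) and 0.08 (SE 0.237). Their other tested probe sets differed in sign, at 0.09 (SE 0.179) and 0.65 (SE 0.219; all knockout arrays above all wild type arrays) for Mecr and -0.10 (SE 0.219) for Lias.

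The sister complexes, which share Dld or the same chemistry, and their regulators were higher in the knockout in 9 of 9 tested genes by the brightest probe set, with a median of 0.18. The median was 0.08 within the replicate 1 pair, where Ogdh (-0.09) and Dhtkd1 (-0.19) were lower, and 0.16 within the other 4 arrays. Another tested Dlst probe set had -0.10 (SE 0.508). The count was also 9 of 9 relative to the median of all genes under median scaling and quantile normalization. In 3 of the 9 the groups did not overlap, beside 7.46% of all tested genes. These were Ppm1k and Bckdk, which are the phosphatase and the kinase of the branched-chain keto acid dehydrogenase, and Gcsh of the glycine cleavage system, which was named after its values were seen. Ppm1k had 3139.4, 4144.6 and 3837.2 in the wild type against 4533.1, 5549.4 and 4374 in the knockout (log2 0.38, SE 0.187, limma adjusted p = 1). Bckdk had 1960, 1706.3 and 1690.5 against 2067.3, 1985.5 and 2087.5 (log2 0.20, SE 0.153), and Gcsh had 0.10 (SE 0.147). In Gcsh the lowest knockout signal, 4300.9, was barely above the highest wild type signal, 4299.1. Another tested probe set had 0.30 (SE 0.343) for Ppm1k and 0.51 (SE 0.327) for Bckdk, and in both the groups overlapped. The subunits Bckdha and Bckdhb had 0.32 (SE 0.289) and 0.18 (SE 0.154), and no gene of the list passed.

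Enzymes of lactate, acetyl-CoA and anaplerosis, listed together with citric acid cycle enzymes such as Idh3g, had 7 of 10 tested genes higher and a median of 0.02. Ldhd, a mitochondrial D-lactate dehydrogenase, had 0.29 (SE 0.223), that is -0.11 within the replicate 1 pair and 0.48 within the other 4 arrays. Another tested Ldhd probe set had 0.04 (SE 0.249). Acly, which makes cytosolic acetyl-CoA, had -0.14 (SE 0.174). Crat, carnitine acetyltransferase, had 0.17 (SE 0.302) and Idh3g had 0.07 (SE 0.156). The medians of the list were -0.09 within the replicate 1 pair and 0.15 within the other 4 arrays.

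The factors known to regulate Pdk4 had 5 of 12 tested genes higher, with a median of -0.06, and -0.0078 and -0.0087 within the replicate 1 pair and the other 4 arrays. Ppara, the fatty acid receptor of the heart, had 3046, 1581.5 and 1877.4 in the wild type against 3781.9, 2339.1 and 2120.3 in the knockout. The knockout was higher within each replicate number, with a log2 difference of 0.35 (SE 0.323, limma adjusted p = 1). Ppargc1a, the coactivator of mitochondrial genes, had 0.26 (SE 0.263), Esrra 0.15 (SE 0.178) and Pparg -0.19 (SE 0.179). Ppara thus had a positive difference and Pdk4 a negative one in every replicate number, and neither passed.

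Other targets of the PPAR receptors had 14 of 18 tested genes higher, with a median of 0.05. Acot1, an acyl-CoA thioesterase, had a log2 difference of 0.44 (SE 0.232), Slc25a20, the carnitine carrier, 0.29 (SE 0.2), and Acot2 0.18 (SE 0.16), against -0.20 (SE 0.237) by its other tested probe set. Ucp3, a mitochondrial carrier of the uncoupling protein family, had -0.37 (SE 0.223), from 870.7, 815.7 and 521.3 in the wild type and 558.5, 549.7 and 551 in the knockout, but its other tested probe set gave 0.07 (SE 0.204). By the brightest probe set, Acot2 was the only tested gene of this list whose groups did not overlap, against 7.46% of all tested genes. Within the replicate 1 pair the list had a median of -0.15, within the other 4 arrays 0.22.

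Targets of the hypoxia factor HIF other than Pdk1 had 5 of 12 tested genes higher and a median of -0.03, which was -0.18 within the replicate 1 pair and 0.11 within the other 4 arrays. Vegfa had 0.36 (SE 0.215), Egln3, an oxygen-sensing hydroxylase, 0.41 (SE 0.338), Bnip3 -0.21 (SE 0.217) and Ndrg1 -0.14 (SE 0.16). Vegfa was higher mainly in the replicate 1 pair, by 0.78 against 0.15 in replicates 2 and 3. Another tested Vegfa probe set had 0.05 (SE 0.228).

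**Figure D4:**
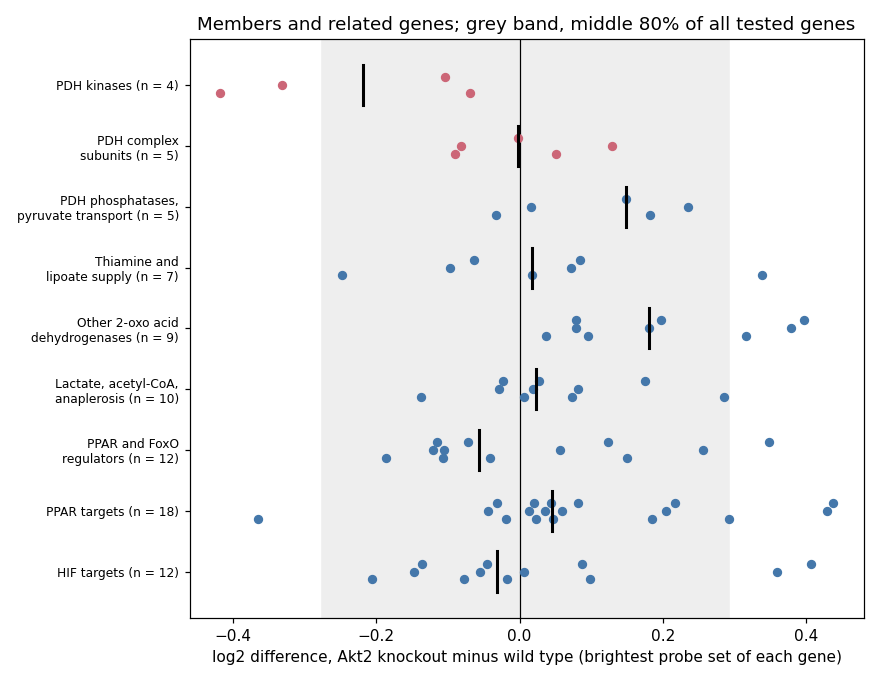
Log2 difference, Akt2 knockout minus wild type, of the brightest probe set of each tested gene among the members (red) and the related lists (blue); black bars are medians and the grey band holds the middle 80% of all tested genes, -0.28 to 0.29. Pdk4 and Pdk3 lie left of the band (-0.42 and -0.33), and the 5 subunits of the complex all lie inside it.

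Among 11074 other tested genes, those whose log2 values followed Pdk4 most closely over the 6 arrays were Carhsp1 (Pearson r = 0.992), Igfbp3 (0.991) and Irf8 (0.984). In each the lowest array was knockout 1, as for Pdk4, with 475.4, 228.4 and 148.2. Because the genes were picked by their correlation with Pdk4 over these same arrays, the shared low array is no separate evidence. With so few arrays, 46 genes reached a correlation above 0.95, and all points share the arrays and their scaling. In the RefSeq gene table of assembly GRCm38.p6, 0 of the 9 member genes lie on the chromosome of Akt2. Genes of the related lists were not placed in this way, so linkage of any of them to Akt2 was not tested.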

How the data were processed

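RNA of 6 left ventricle samples, 3 of each genotype, was labelled from 12 µg of total RNA and hybridised to Affymetrix arrays. The deposited values are intensities, 1 linear signal a probe set, made by the authors with MAS5 per the submitters' processing notes. Its version and settings were not given in the sources used here. Detection calls were not used here. The mean signal without the highest and lowest 2% was 500.0 on every array, so the authors had scaled each array by 1 factor. That scaling was kept, and array distributions can still differ in shape.

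Of 45101 probe sets, 64 controls were left out. Before log2 was taken, 21.7, the 20th percentile of all values, was added to each signal, so fold changes of dim genes are understated. The test took the 22519 probe sets whose mean log2 value reached the median, 6.868, and used limma 3.58.1 in R 4.3.3 (lmFit, eBayes, no covariate; Benjamini-Hochberg over all tested, threshold 0.05). A second fit used 1 probe set a gene, the brightest, for 11075 genes. Of the 17 member probe sets, 15 passed the filter. The number of arrays limits the precision. The script was checked on simulated data with planted differences larger than those of the members and without a shift of the replicate 1 arrays. That check does not show which differences could be found in these data.

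Names come from the platform annotation of the probe sets (34945 with 1 symbol, 932 with several, 9160 unnamed here). The members and lists were chosen with earlier results of these data known. The genes named were all members, Akt2, up to 4 genes of each list by lowest unadjusted p, the 3 genes most correlated with Pdk4, and examples from the cell type marker lists; Gcsh, Ogdh, Dhtkd1 and Dlst, and the marker examples, were picked after their values were seen. The sample titles carry numbers 1 to 3 in both genotypes. Over the tested probe sets, deviations from the genotype mean correlated between same-numbered arrays at 0.607, 0.455 and 0.394, so fits with the number as a block were run. Other alternatives were pseudocounts, filters, scalings, a term for the replicate 1 arrays, replicates 2 and 3 alone, a trended robust variance, the mean of a gene's probe sets, and leaving out each array.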

Additional observations from a re-analysis of the deposited data

How the results depend on the processing

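Under the 17 alternatives no member gene or probe set and no gene of the related lists passed, and 16 of the 149 log2 differences of member genes recomputed under them changed direction, each of a gene whose log2 difference as reported lay between -0.10 and 0.05. Dividing each array by its median turned Pdk1 to 0.0348, Pdk2 to 0.0015, Pdha1 to 0.0235, Pdhb to 0.10 and Pdhx to 0.0151 (log2). Quantile normalization turned Pdhb to 0.0491. In replicates 2 and 3 alone Pdha1 was 0.0595 and Pdhb 0.0808. Leaving out each array in turn gave -0.37 to 0.12 for Pdk1, -0.0623 to 0.0497 for Pdhb and -0.0447 to 0.11 for Dld. Pdk4 (-0.61 to -0.15) and Dlat (0.07 to 0.23) kept their direction under every alternative. Pdk3 (-0.91 to -0.22) did so where it was tested, but was 0.09 in replicates 2 and 3 alone, where it was too dim for the test. Member probe sets whose groups did not overlap numbered 1 with quantile normalization (8.62% of all probe sets), 5 in replicates 2 and 3 alone, where 37.9% of all probe sets did so, and 1 to 4 with an array left out (14.1% to 23.6% of all). The replicate block left Pdk4 at -0.42 (limma adjusted p = 0.767) and changed no call. Pdk3 was too dim for the test in 4 alternatives and Dld and Pdk1 each have a dim probe set, so depth of signal limits these.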
